A study of Mus musculus with 2 samples.

Results

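The miR-199 and miR-214 hairpins are 4 miRNA genes, Mir214, Mir199a-2, Mir199a-1 and Mir199b, each transcribed antisense to a dynamin gene. They were chosen by name, as the rows whose gene identifiers GENCODE M21 gives those names, and are 4 of the 2202 miRNA genes counted. The hearts came from male 5xFAD/CAST mice, adults aged 8 to 10 months, and their small RNA was sequenced by microRNA-seq, with total RNA as the starting material and a stated size range below 30. 5xFAD is a transgenic model of amyloid deposition in the brain, whose transgenes are driven by the neuronal Thy1 promoter, and CAST is a wild-derived inbred strain. Both libraries belong to a single group, replicates 1 and 2, and no library of another genotype was analysed here. The replicates have separate biosample entries but share a donor entry, and nothing in the labels states that they were separate animals. Each spread and p-value below therefore describes these libraries, and the difference may be technical.

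A miRNA gene is transcribed as a longer RNA that folds into a hairpin, from which a mature strand can be cut from either arm, named 5p and 3p. The mature strand guides silencing of messenger RNAs mainly through its seed, bases 2 to 8. Mir199a-2 and Mir214 are processed from the long non-coding RNA Dnm3os, which the transcription factor Twist1 activates in mesenchymal cells. In mouse heart, miR-214 is known to repress the sodium-calcium exchanger Slc8a1 and to protect cardiomyocytes in ischemia. miR-199a-5p is known to repress Hif1a and Sirt1 in cardiomyocytes, and miR-199a-3p to promote their proliferation. Both miRNAs are also known as regulators of fibroblasts and fibrosis.

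The mature sequences are shown first because copies of a sequence at several loci bear on how its reads could be counted. The 4 hairpins matched RefSeq (GRCm38.p6), whose hairpin letters were the same as those of GENCODE M21 for 4 of 4. Sequences run 5′ to 3′, and capitals mark the seed.
mmu-miR-214-3p: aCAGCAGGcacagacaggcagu
mmu-miR-214-5p: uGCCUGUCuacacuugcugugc
mmu-miR-199a-3p: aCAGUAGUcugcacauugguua
mmu-miR-199a-5p: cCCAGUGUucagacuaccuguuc
mmu-miR-199b-3p: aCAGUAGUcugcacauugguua
The miR-199a-3p and miR-199b-3p sequences are the same letters and were found in 3 of the 2202 annotated hairpins. The miR-199a-5p sequence was found in 2 hairpins. Each miR-214 arm was found in 1 hairpin. The miR-214-3p seed differs from the miR-199-3p seed, and neither 5p seed matches another.

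In the complete hairpins below, capitals mark the mature arms that RefSeq lists.
Mir214: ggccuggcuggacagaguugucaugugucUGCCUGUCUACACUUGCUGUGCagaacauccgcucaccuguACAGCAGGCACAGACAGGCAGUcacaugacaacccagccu
Mir199a-2: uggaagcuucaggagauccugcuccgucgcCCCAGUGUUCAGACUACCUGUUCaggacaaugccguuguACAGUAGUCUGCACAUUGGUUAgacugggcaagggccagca
Mir199a-1: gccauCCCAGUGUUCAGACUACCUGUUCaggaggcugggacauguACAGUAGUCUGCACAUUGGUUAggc
Mir199b: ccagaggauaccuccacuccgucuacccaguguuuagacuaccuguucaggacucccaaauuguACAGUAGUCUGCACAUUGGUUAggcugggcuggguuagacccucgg
No miR-199b-5p entry was in the RefSeq table used. The Mir199b stretch that lines up with miR-199a-5p is shown next, with the differing base in capitals.
Mir199b 5p side: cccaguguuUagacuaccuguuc
It carries the single substitution C10U relative to miR-199a-5p, counted from 1 at the 5′ end of that miRNA, and was found in 1 hairpin.

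The miR-199 hairpins share long runs of sequence with each other, and Mir214 shares none of that length with any hairpin. Mir199a-1 and Mir199b share a run of 28 nt, and Mir199a-2 shares a run of 27 nt with each of them. The longest run that Mir214 shares with any other hairpin was 13 nt, and 7 nt with each miR-199 hairpin. Of the 20-nt windows, 17 of 51 (33.3%) in Mir199a-1 occur in another hairpin. The same holds for 16 of 91 (17.6%) in Mir199a-2, 10 of 91 (11.0%) in Mir199b and 0 of 91 in Mir214. Those shared windows lie in Mir199a-1, Mir199a-2 and Mir199b alone.

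**Figure D1:**
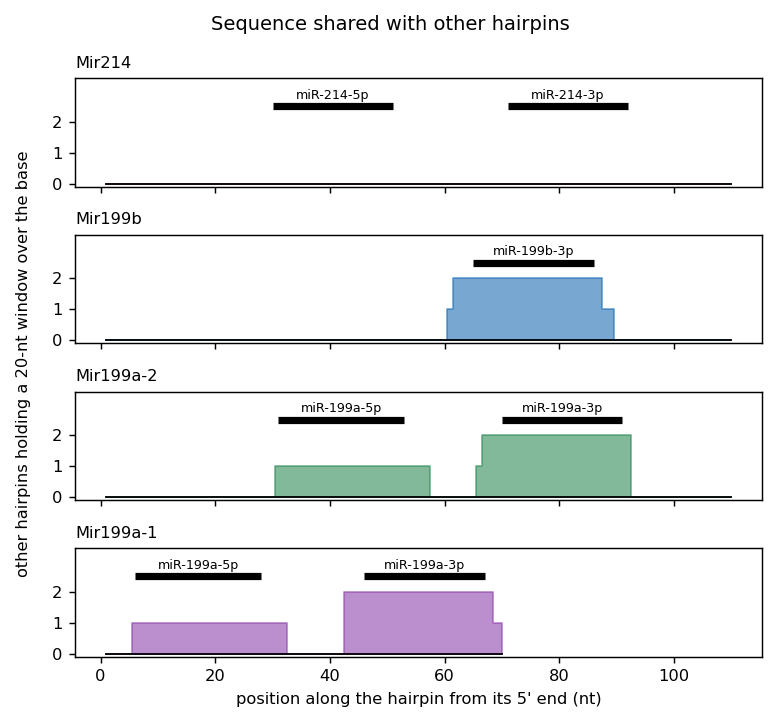
For each base along a hairpin (x axis, nt from the 5′ end), the height gives how many other annotated hairpins hold a 20-nt window covering that base; black bars are the RefSeq mature arms. Every mature arm shown for a miR-199 hairpin lies within shared windows, with 2 other hairpins at the 3p arms, while Mir214 has 0 shared windows.

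On mm10, Mir214 (ENSMUSG00000065516.1) lies at chr1:162223368-162223477 and Mir199a-2 (ENSMUSG00000070126.1) at chr1:162217814-162217923, both on the plus strand. Both are in exons of Dnm3os, 5444 nt apart, and antisense to an intron of Dnm3. Mir199b (ENSMUSG00000092807.1) lies at chr2:32318460-32318569 on the plus strand, antisense to an intron of Dnm1. Mir199a-1 (ENSMUSG00000065547.1) lies at chr9:21496495-21496564 on the minus strand, antisense to an intron of Dnm2. Dynamins are GTPases that pinch off membrane vesicles. The only other annotated miRNA gene inside these 3 dynamin genes was Gm23363, 116 nt before Mir199b on the same strand, with 4 and 2 sense counts in replicates 1 and 2.

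**Figure D2:**
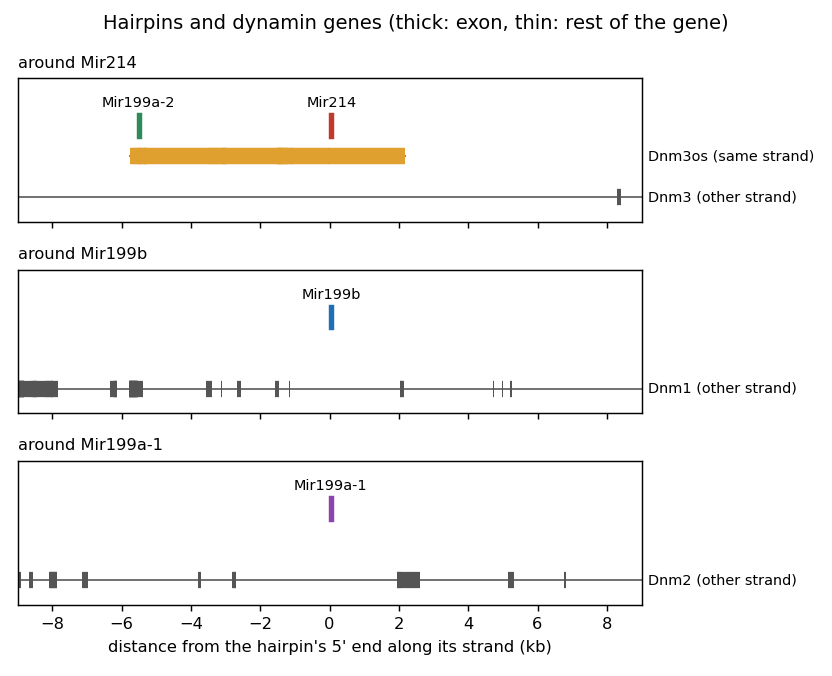
Position of the hairpins relative to GENCODE M21 genes, as distance in kb from the 5′ end of the named hairpin along its own strand; thick bars are exons of any transcript and thin lines the rest of the gene. Mir199a-2 and Mir214 sit in exons of Dnm3os on their own strand, while Mir199b and Mir199a-1 have only a dynamin gene, on the other strand.

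Among reads given to a gene, Mir214 was the one abundant hairpin of the 4. It had 10103 sense counts in replicate 1 and 6342 in replicate 2. Scaled to the sense total, as CPM, these were 2598 and 1254, a mean of 1926 ± 950 CPM (SD, n = 2). It ranked 38 of 2202 genes in replicate 1 and 53 in replicate 2, which placed it above 88.3% and 83.7% of the 325 detected genes, those with at least 10 counts in both libraries. Its share of sense counts was 0.260% in replicate 1, with a 95% Clopper-Pearson interval of 0.255 to 0.265, and 0.125% in replicate 2, with one of 0.122 to 0.128. These intervals cover counting error only, since PCR copies could not be told from separate molecules.

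The miR-199 hairpins stood at the low end of detection among reads given to a gene. Mir199b had 29 sense counts in replicate 1 and 41 in replicate 2, or 7.46 and 8.10 CPM, with a mean of 7.78 ± 0.459 CPM (SD, n = 2). Mir199a-2, encoded by the same host RNA as Mir214, had 20 and 17 counts, or 5.14 and 3.36 CPM, with a mean of 4.25 ± 1.26 CPM. Mir199a-1 had 0 counts in each library. A count of 0 allows up to 3 counts, or 0.771 CPM in replicate 1 and 0.593 CPM in replicate 2. Thus 3 of the 4 hairpins were detected, and the libraries gave the same order of the 4 hairpins. Mir214, Mir199b and Mir199a-2 have hairpins of equal length, 110 nt, so their order is the same per length. Mir199a-1 is 70 nt long.

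**Figure D3:**
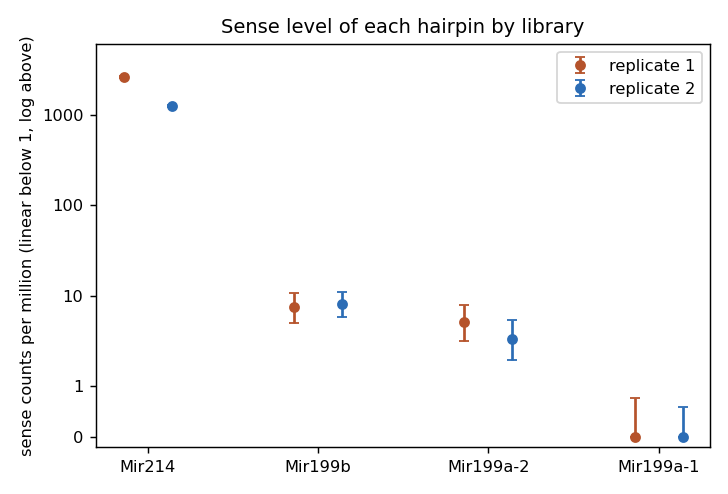
Sense level of each hairpin in CPM (y axis, linear below 1 and logarithmic above) in replicates 1 and 2; points are single libraries and bars are exact 95% Poisson intervals for counting error, or reach up to 3 counts where the count is 0. Mir214 stands at 2598 and 1254 CPM, Mir199b and Mir199a-2 between 3.36 and 8.10 CPM, and Mir199a-1 at 0.

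Within a library Mir214 exceeded the summed miR-199 counts by more than 100 to 1. The miR-199 counts summed to 49 over 3 hairpins in replicate 1, and to 58 in replicate 2. Mir214 stood at 206 times that sum in replicate 1 (exact 95% interval 156 to 279) and 109 times in replicate 2 (84.5 to 144). Mir214 to Mir199a-2, the ratio within the Dnm3os transcript, was 505 (327 to 827) and 373 (233 to 641). Mir214 to Mir199b was 348 (242 to 520) and 155 (114 to 216). Against the floor of 3 counts per library, Mir214 was at least 3368-fold and 2114-fold higher than Mir199a-1.

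The counts of Mir199b and Mir199a-2, next to each other in order, were separated beyond counting error in replicate 2 and not in replicate 1. The ratio of Mir199b to Mir199a-2 was 1.45 in replicate 1 (0.793 to 2.70; two-sided exact binomial p = 0.253) and 2.41 in replicate 2 (1.34 to 4.53; p = 0.00223), unadjusted over the 10 within-library ratios computed. Mir199b was the higher one in 2 of 2 libraries. Mir199a-2 exceeded Mir199a-1 with 20 against 0 counts in replicate 1 and 17 against 0 in replicate 2 (exact binomial p = 1.9e-06 and 1.5e-05). These tests treat the hairpins as equally countable. Shared 20-nt windows cover 78.6% of the bases of Mir199a-1, 49.1% of Mir199a-2 and 26.4% of Mir199b. The miR-199a-5p sequence was found in 2 hairpins, and the matching Mir199b stretch in 1. The p-values therefore compare counts, and cannot tell whether the hairpins differ in level.

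Reads that aligned to several places are not part of the miR-199 counts. The deposited tables hold reads that aligned to several places in a summary line, 4576006 in replicate 1 and 6650307 in replicate 2, and give them to no gene. These were 1.18 and 1.31 times the sense counts of all genes together. A read of the complete miR-199a-3p sequence matches 3 annotated hairpins, and one of the complete miR-199a-5p sequence matches 2. Such reads have no single place among the hairpins. The tables do not say how many of the reads in the summary line carried a miR-199 sequence. The part of this in the low miR-199 counts was not tested. The counts of Mir199a-1, Mir199a-2 and Mir199b are therefore uncertain, and their order and their distance from Mir214 hold among reads given to a gene.

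Of the hairpins with a shared run of at least 20 nt, 77 of 1084 (7.10%) were detected, against 248 of 1118 (22.2%) of those without one. Counts were 0 in both libraries for 88.0% of the former and 47.9% of the latter. The former include Gm-named genes with no RefSeq match, such as Gm22029, whose complete hairpin of 121 nt recurs elsewhere. Only 972 of the 2202 genes matched a RefSeq hairpin, and the split by shared run was not repeated on them alone. Among the detected genes the median level was 77.0 CPM with a shared run and 43.9 CPM without. By shared mature arms, a split chosen after the levels were seen, 4 of 49 genes (8.16%) with all arms shared were detected, 32 of 59 (54.2%) with some arms shared and 237 of 850 (27.9%) with no arm shared. In that split, detection was more frequent with some arms shared, and less frequent with all arms shared, than with none. It covers the 958 genes with a RefSeq mature sequence, too few of the 2202 to describe all genes. These are descriptions over genes, which are not independent replicates. Of the 77 detected genes with a shared run, 10 stood at or below the Mir199b level, as did 54 of the 248 detected genes without one. Mir214, which has no such run, was exceeded by 35 of those 248.

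**Figure D4:**
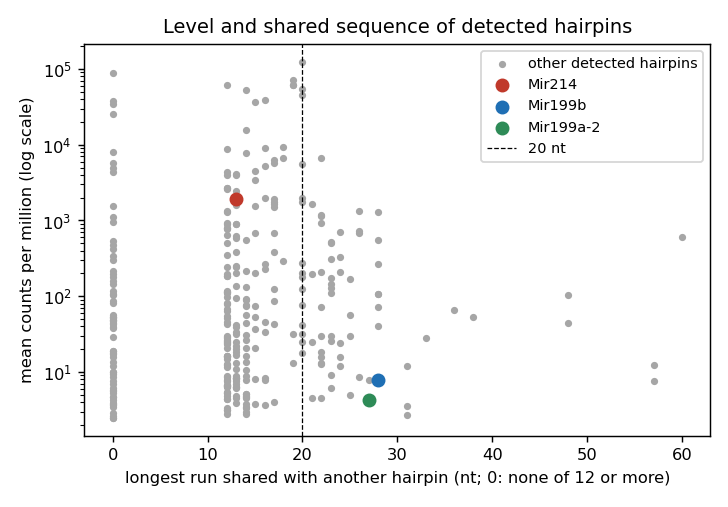
Longest run shared with another annotated hairpin (x axis, nt; 0 where no run of 12 nt or more is shared) against mean CPM of both libraries (y axis, log scale) for the 325 detected hairpins. Mir214 lies at 13 nt and 1926 CPM, and Mir199b and Mir199a-2 at 28 and 27 nt with 7.78 and 4.25 CPM; the dashed line marks 20 nt.

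The dynamin strand held few or no reads at the 4 hairpins. Mir214 had 0 opposite-strand counts in replicate 1 and 3 in replicate 2, a share of 0.0473% there (95% Clopper-Pearson interval 0.00975 to 0.138). In replicate 1 the 0 counts allow up to 3 counts, a share of up to 0.0297%. Mir199a-2, Mir199b and Mir199a-1 had 0 opposite-strand counts in both libraries. No miRNA gene is annotated opposite any of the 4 in GENCODE M21.

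Replicates 1 and 2 differed in Mir214 by more than counting error. Mir214 was 1.90-fold higher in replicate 1 than in replicate 2 after TMM scaling, which sets the libraries level on the bulk of genes (exact 95% interval 1.84 to 1.96), with an adjusted p that the exact binomial test returned as 0, below the smallest number it can hold. The test ran over the 412 genes with a summed count of at least 10 and was Benjamini-Hochberg adjusted over all of them at 0.05; it compares these libraries, not conditions. Of those 412 genes 45.4% were called, 93 higher in replicate 1 (22.6%) and 94 higher in replicate 2 (22.8%), against 120 and 79 with total-count scaling, which moved the median log2 ratio of the tested genes to 0.12. A call between the libraries is therefore common at this depth, and 1 of the 3 tested hairpins was called. On the log2 scale, with 1 CPM added to both levels, the replicate 1 over replicate 2 difference of Mir214 was 0.93, and 6 of the 134 detected genes with a mean of at least 100 CPM had a higher one.

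The miR-199 hairpins were not called between the libraries. Mir199a-2 was 1.40-fold in replicate 1 over replicate 2 (0.698 to 2.85; exact binomial adjusted p = 0.457). Mir199b was 0.844-fold (0.506 to 1.39; adjusted p = 0.689). A ratio of 1.90, as for Mir214, lies within the interval of Mir199a-2 and above that of Mir199b, whose lower end allows a level in replicate 1 about as far below that in replicate 2. Mir199a-1, with 0 counts, was not tested.

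**Figure D5:**
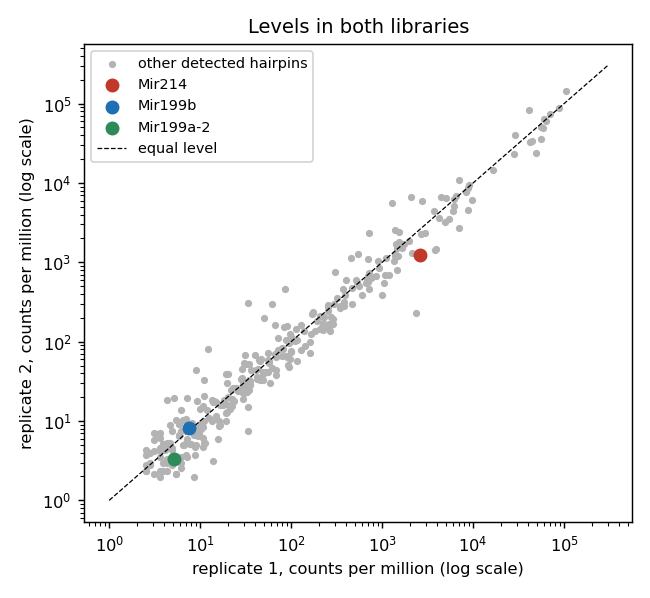
CPM in replicate 1 (x axis) against replicate 2 (y axis), both on log scales, for the 325 detected hairpins, with the line of equal level dashed. Mir214 lies below the line, at 2598 and 1254 CPM, while Mir199b and Mir199a-2 lie among the lowest detected hairpins.

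Hairpins that mark other cell types differed in both directions. Folds given here are after TMM scaling, and shares are of unscaled sense counts. Of the 3 heart muscle hairpins, Mir208a and Mir208b were higher in replicate 1 by 2.40-fold and 1.86-fold, while Mir499 was lower in replicate 1, at 0.425-fold of replicate 2. The summed share of these 3 hairpins was 0.673% of sense counts in replicate 1 and 0.743% in replicate 2. Other muscle hairpins were not in the list, so this is not the share of all muscle miRNA. The endothelial hairpin Mir126a held 8.71% and 8.78%, and the smooth muscle hairpins Mir143 and Mir145a together 3.01% and 4.17%. Red cell hairpins Mir144 and Mir451a held 0.0320% and 0.0217%, with Mir451a 1.60-fold higher in replicate 1 and Mir144 lower there at 0.563-fold. Leukocyte hairpins Mir142 and Mir223 held 0.0285% and 0.0279%, and neither was called (exact binomial adjusted p = 0.260 for Mir142 and 0.457 for Mir223). None of these 10 defining hairpins was at 0. The miR-199 and miR-214 hairpins held 0.261% and 0.127%, of which Mir214 made up 99.5% and 99.1%. In bulk tissue, fewer cells of a type and less RNA per cell cannot be told apart, and the part of cell composition in the Mir214 difference was not tested.

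Of 17 other hairpins linked to heart fibrosis and fibroblasts, 5 were higher in replicate 1 and 10 higher in replicate 2, and 2 did not pass the test. Over all 412 tested genes these calls made up 22.6% for replicate 1 and 22.8% for replicate 2. Calls were more common at higher counts. All 17 hairpins had a summed count of at least 50. Of the 282 genes passing that filter 173 were called, 84 higher in replicate 1 and 89 higher in replicate 2. The median log2 ratio of replicate 1 over replicate 2 was -0.21 for the 17 hairpins, against 0.0038 over all 412 tested genes. Mir21a, which promotes fibroblast survival, had 5022 counts in replicate 1 and 28492 in replicate 2, a scaled ratio of 0.210 for replicate 1 over replicate 2. Mir29c, of the collagen-repressing miR-29 family, had 2103 and 6520 counts, a ratio of 0.385. Mir29a, the most abundant of the 4 miR-29 hairpins in the list, had 63611 and 74509 counts and was higher in replicate 1 by 1.02-fold. This direction depended on the scaling. Mir155, an inflammatory miRNA, had 18951 and 16244 counts and was 1.39-fold higher in replicate 1. Mir212, which promotes hypertrophy, had 75 and 51 counts and was 1.75-fold higher in replicate 1, while Mir132, of the same cluster, had 1238 and 1815 counts and was higher in replicate 2, with a ratio of 0.814. The uncalled hairpins were Mir29b-1, with 224 and 289 counts, and Mir29b-2, with 114 and 158 counts.

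The detected genes nearest to Mir214 in mean level were Mir130a at 1911 ± 106 CPM, Mir195a at 1970 ± 844 CPM and Mir27a at 1975 ± 604 CPM (SD, n = 2). Mir130a had 7725 and 9286 counts and was not called (exact binomial adjusted p = 0.743). Mir195a and Mir27a were higher in replicate 2, with log2 ratios of -1.03 and -0.76. Among the 133 other detected genes of at least 100 CPM, those nearest to Mir214 in log2 ratio were Mir149 at 0.90, Mir3102 at 0.85 and Mir30e at 0.82. With 2 libraries this likeness is the closeness of a single number.

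A single other mouse miRNA in the RefSeq table shares a seed with these hairpins. miR-761, from Mir761, carries the miR-214-3p seed, shown in capitals.
mmu-miR-761: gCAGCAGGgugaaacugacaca
Mir761 had 0 sense counts in each library, within the same limits of 0.771 and 0.593 CPM as Mir199a-1. No RefSeq miRNA outside the 4 hairpins shares the miR-214-5p, miR-199-3p or miR-199a-5p seed.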

How the data were processed

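Per the file headers' description texts, reads were mapped to mm10 with annotation M21; the sources used here do not name the aligner or any filter. The deposited tables hold raw read counts per miRNA gene in 3 columns, which no header names. The column taken as the sense strand, judged from the layout and its larger total in both libraries, was used. Sense totals were 3889280 in replicate 1 and 5058613 in replicate 2. The 4 summary lines, 64.1% and 64.4% of reads, stayed out of library sizes and tests.

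All 2202 identifiers matched GENCODE M21, and 972 matched a RefSeq hairpin. Scaling used TMM in edgeR 4.0.16. Exact binomial tests used SciPy 1.17.1 and were tried on simulated Poisson counts with planted changes. Those counts hold counting error and no other spread between libraries. The quasi-likelihood test was not run, since a single library per side leaves it no residual degrees of freedom. Shared runs were searched on the sense strand among annotated hairpins.

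Named genes are the 4 hairpins, 17 fibrosis and fibroblast hairpins, 10 markers of other cell types, hairpins in dynamin genes, seed and sequence sharers, and the 3 nearest to Mir214 in level and in ratio. The members and lists were chosen with earlier results of these data known. Alternatives were other scalings, count filters, the column that ignores strand, hairpin length and single libraries.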

Additional observations from a re-analysis of the deposited data

How the results depend on the processing

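Directions and calls of Mir214, Mir199a-2 and Mir199b between the libraries were kept under every scaling, filter and strand setting that could be computed; with a summed count of at least 50, Mir199a-2 was not tested. Total-count scaling gave Mir214 a log2 ratio of 1.05, and RLE factors gave 0.90. Scaled to all reads in the tables in place of the sense total, Mir214, Mir199a-2 and Mir199b stood at 690, 1.52 and 2.78. In the column that ignores strand, Mir199a-2 and Mir199b stood at 5.54 and 10.2 CPM, since the gene totals there are smaller. The ratio of Mir214 to the Mir199a-1 floor of 3 counts averaged 1744 over the libraries per hairpin length, against 2741 by counts. RLE factors left 3 fibrosis hairpins higher in replicate 1, and Mir29a was not among them. The median level of detected genes with a shared run was 106 CPM for runs of at least 18 nt, 61.6 CPM for at least 22 nt and 28.7 CPM with at least 1 count in both libraries. Without a shared run it was 46.9 CPM for at least 22 nt and 4.86 CPM with at least 1 count. With replicate 1 or replicate 2 left out it ranged from 41.9 to 44.3 CPM without a shared run. The Mir214 to Mir199b ratio was 155 without replicate 1 and 348 without replicate 2. No paired analysis was possible because the labels give a single group. With 20 and 17 counts, depth limits what can be said of Mir199a-2.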

Other observations

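Neighbouring hairpins of one strand often differed in level, and the pair in Dnm3os was among the more unequal. Among 41 pairs of adjacent hairpins within 10 kb whose higher member had at least 1000 counts in both libraries, the median ratio of the higher to the lower was 20.9. Mir214 to Mir199a-2, with a mean of 439 ± 93.4 (SD, n = 2), ranked 7. The lower hairpin shared a run of at least 20 nt with another hairpin in 20 of the pairs, where the median ratio was 38.2, against 11.3 in the 21 other pairs. Of 9 pairs with a ratio over 100, the lower hairpin had such a run in 7. The higher hairpin had one as well in the pairs of Mir92-1 with Mir19b-1 and of Mir467d with Gm22678 and Mir466. Some hairpins, such as Mir467d and Mir19b-1, occur in several of these pairs. Mir29a to Mir29b-1 at 271 and Mirlet7d to Mirlet7f-1 at 254 followed the Dnm3os pair. Lower members at 0 counts were set to 3 counts, so those ratios are lower bounds. The pairs were looked at after the levels were known, and genes are not independent replicates.

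Of 34 detected hairpins that lie antisense to a protein-coding gene and in the sense of none, Mir214 was second in mean level, behind Mir99a at 39168 CPM. Mir199b ranked 28 and Mir199a-2 ranked 32, and the median was 35.2 CPM.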
